A study of Mus musculus with 12 samples.

Results

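The 3 precursors of the miR-7 family, mmu-mir-7a-1, mmu-mir-7a-2 and mmu-mir-7b, were examined in the small RNA of the mouse cerebral cortex. They were taken by name from a table of 589 miRNA precursors, of which 324 were above 0 in at least 1 library. The table covers 4 groups of female mice on the C57BL/6J background, each with 3 libraries, 12 in all, and each library was made from the pooled RNA of 3 mice, so that 36 mice are represented. The WT group drank water, the WT + EtOH group drank water with 10% (v/v) ethanol for 5 months from the age of 7 weeks, and the TLR4-KO and TLR4-KO + EtOH groups were mice with a knockout of the Toll-like receptor 4 that were kept in the same ways. The WT mice were bought from a breeder and the TLR4-KO mice came from another laboratory, so that genotype and origin of the mice cannot be told apart. The value of a precursor is a normalized score on a scaled logarithm, the highest being 134.8 in each library, and a difference on this scale is not a fold. Because every library holds a pool, an SD given here describes how pools differ, not mice. Small RNA libraries do not hold the Tlr4 mRNA, so that the genotype was not checked in these data.

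miR-7 is one of the most conserved animal miRNAs and is enriched in neurons and in neuroendocrine cells such as those of the pituitary and the pancreatic islets. A miRNA is cut as a short duplex from the hairpin of its precursor, and one strand then guides an Argonaute protein to mRNAs that pair with its seed, bases 2 to 8. In the brain, miR-7 is embedded in a circuit of non-coding RNAs, since the circular RNA Cdr1as carries many sites for miR-7, miR-671 directs the cleavage of Cdr1as, and the long non-coding RNA Cyrano promotes the decay of miR-7. The mRNA of alpha-synuclein is among its known targets. None of these longer RNAs was measured in the small RNA libraries.

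The mature sequences are shown because they decide which of the 3 precursors a read can be assigned to. All 3 precursors matched an entry of RefSeq (GRCm38.p6), and the seed of each mature miRNA is in capitals, 5′ to 3′.
mmu-miR-7a-5p: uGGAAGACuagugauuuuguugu
mmu-miR-7b-5p: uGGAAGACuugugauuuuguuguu
mmu-miR-7a-1-3p: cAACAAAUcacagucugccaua
mmu-miR-7a-2-3p: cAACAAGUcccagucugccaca
mmu-miR-7b-3p: cAACAAGUcacagccagccuca

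The guide strand of the family comes from the 5′ arm, and mmu-miR-7a-5p is the product of both mmu-mir-7a-1 and mmu-mir-7a-2. mmu-miR-7b-5p differs from it by A10U, counted from 1 at the 5′ end of mmu-miR-7a-5p, and has 1 more base at its 3′ end (24 against 23 bases). Over the 23 bases compared, 22 matched. Both have the seed GGAAGAC, which no other of the 1679 mature sequences in the RefSeq table has. The 3′ arms differ more. mmu-miR-7a-1-3p differs from mmu-miR-7a-2-3p at 3 of 22 bases (A7G, A10C and U21C), and A7G lies in the seed, so that these products of the 7a copies have different seeds. mmu-miR-7a-2-3p and mmu-miR-7b-3p have the seed AACAAGU in common, which again is in no other mature sequence of the table, and differ at 4 bases outside it.

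The hairpins lie on different chromosomes and are shown because only their loops, flanks and 3′ arms tell the 7a copies apart. The mature miRNAs are in capitals.
mmu-mir-7a-1: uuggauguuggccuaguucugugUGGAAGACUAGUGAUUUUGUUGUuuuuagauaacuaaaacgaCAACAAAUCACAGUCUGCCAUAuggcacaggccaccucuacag
mmu-mir-7a-2: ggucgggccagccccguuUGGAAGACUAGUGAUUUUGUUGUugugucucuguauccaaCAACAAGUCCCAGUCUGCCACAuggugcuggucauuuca
mmu-mir-7b: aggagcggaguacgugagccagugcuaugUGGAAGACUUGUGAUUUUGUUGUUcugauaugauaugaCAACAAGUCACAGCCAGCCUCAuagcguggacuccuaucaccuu

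mmu-mir-7a-1 (Mir7-1) lies at chr13:58392779-58392886 on the minus strand of GRCm38, inside the gene of the RNA-binding protein Hnrnpk and on its strand. All 12 Hnrnpk transcripts of GENCODE M21 that span the hairpin have an intron there. mmu-mir-7a-2 (Mir7-2) lies at chr7:78888277-78888373 on the plus strand, within no other annotated gene, and the nearest is Aen at a distance of 7481 bases. mmu-mir-7b (Mir7b) lies at chr17:56242988-56243098 on the plus strand, also within no other gene, with the lincRNA AC026385.1 on the same strand 183 bases away.

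The family belonged to the middle of the miRNAs detected in the cortex. Averaged over the 12 libraries, the normalized value was 25.6 ± 6.71 (SD, n = 12) for mmu-mir-7a-2, 24.4 ± 4.26 for mmu-mir-7a-1 and 14.1 ± 10.3 for mmu-mir-7b, which placed them at ranks 169, 172 and 202. Of the 324 precursors above 0 in any library, 47.8%, 46.9% and 37.7% had a lower mean. Both 7a precursors were above 0 in all 12 libraries and mmu-mir-7b in 9. The order 7a above 7b held in 11 of 12 libraries for both copies of 7a, the exception being TLR4-KO replicate 1, in which mmu-mir-7a-1 was below mmu-mir-7b. Whether the length of the miRNA enters the deposited scale is not given in the sources used here, so that the order is that of the scores.

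**Figure D1:**
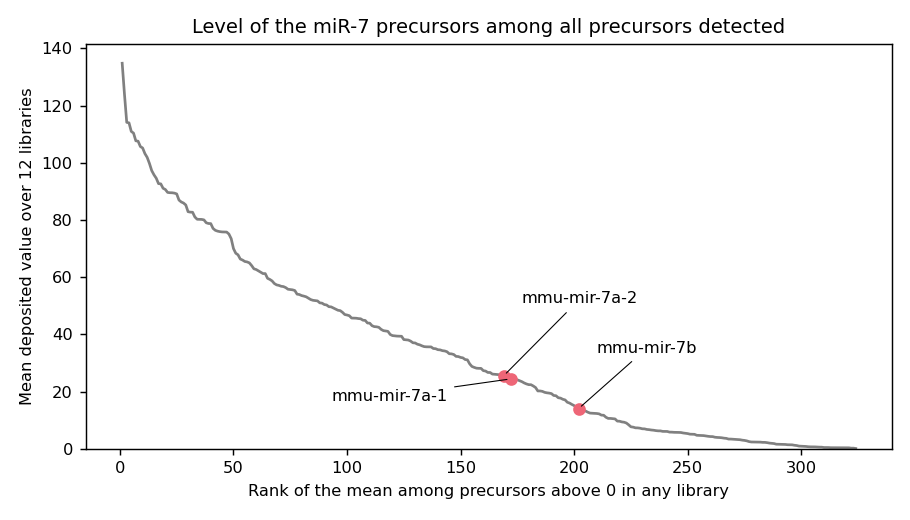
Mean deposited value over the 12 libraries (y axis, no unit) against its rank (x axis) for the 324 precursors above 0 in any library, as a line. The points mark mmu-mir-7a-2 at rank 169, mmu-mir-7a-1 at rank 172 and mmu-mir-7b at rank 202.

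mmu-mir-7a-1 had values of 27.0, 23.8 and 26.8 in the WT libraries, 27.7, 21.5 and 17.6 in WT + EtOH, 20.9, 23.2 and 29.6 in TLR4-KO and 30.5, 18.1 and 26.3 in TLR4-KO + EtOH, in the order of replicates 1 to 3. The 4 groups overlapped, and the WT libraries lay closest together. The group means followed the order WT (25.8 ± 1.75, SD, n = 3), TLR4-KO + EtOH (25.0 ± 6.31), TLR4-KO (24.6 ± 4.52) and WT + EtOH (22.3 ± 5.10).

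mmu-mir-7a-2 had the same values as mmu-mir-7a-1 in the WT libraries, 27.7, 18.3 and 17.6 in WT + EtOH, 41.5, 20.5 and 29.6 in TLR4-KO and 29.5, 18.1 and 26.3 in TLR4-KO + EtOH. The value of 41.5 in TLR4-KO replicate 1 was the highest of any miR-7 precursor in any library, and the 29.6 of replicate 3 was also just above every library of the other groups, while the 20.5 of replicate 2 was below every WT library. The means followed the order TLR4-KO (30.5 ± 10.5, SD, n = 3), WT (25.8 ± 1.75), TLR4-KO + EtOH (24.6 ± 5.87) and WT + EtOH (21.2 ± 5.66).

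mmu-mir-7b had values of 14.7, 19.5 and 11.2 in WT, 22.7, 0 and 11.3 in WT + EtOH, 33.4, 17.8 and 0 in TLR4-KO and 17.5, 0 and 20.8 in TLR4-KO + EtOH. It was listed at 0 in 1 library of each group except WT, and its highest value was again in TLR4-KO replicate 1. With a value above 0 in at least 2 libraries taken as detection, mmu-mir-7b was detected in all 4 groups, and when all 3 libraries had to be above 0, in 1 group, WT. The means were 17.1 ± 16.7 (SD, n = 3) in TLR4-KO, 15.1 ± 4.16 in WT, 12.8 ± 11.2 in TLR4-KO + EtOH and 11.4 ± 11.4 in WT + EtOH. In all 9 pairs of neighbours in the orders of the 3 precursors, the means differed by less than the larger SD of the pair. A value of 0 does not show that the miRNA was absent, since no number of reads stands beside the deposited values.

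**Figure D2:**
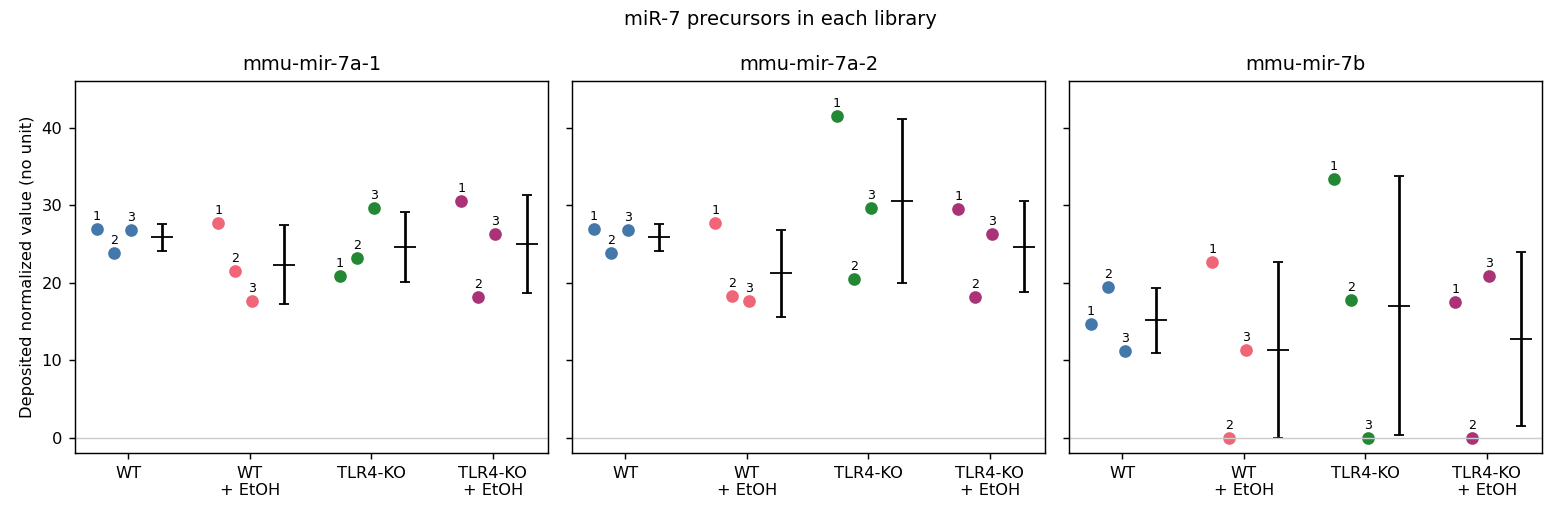
Deposited normalized value (y axis, no unit) of each miR-7 precursor in the 12 libraries, by group (x axis). Points are libraries with their replicate number, and the bars beside them give the mean ± SD of the 3 libraries; mmu-mir-7b is at 0 in WT + EtOH replicate 2, TLR4-KO replicate 3 and TLR4-KO + EtOH replicate 2, and mmu-mir-7a-2 reaches 41.5 in TLR4-KO replicate 1.

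The spread of mmu-mir-7b was among the widest of the table. Its SD within groups, pooled over the 4 groups, was 11.7 and ranked 5 of 324 from the widest, against a median of 4.31 over all precursors detected and of 7.55 over the 32 precursors whose mean lay within 5 units of its own. The SD within groups was 6.72 for mmu-mir-7a-2 (rank 58) and 4.73 for mmu-mir-7a-1 (rank 139). The 3 libraries with mmu-mir-7b at 0 held 233, 216 and 247 precursors above 0, where the 12 libraries ranged from 216 to 270 with replicate 1 of each group at 262 or more. However, WT + EtOH replicate 3 and TLR4-KO replicate 2 held 229 each, and TLR4-KO + EtOH replicate 3 held 236. In these, mmu-mir-7b was at 11.3, 17.8 and 20.8. Across the 12 libraries, the value of mmu-mir-7b and the number of precursors above 0 had a Pearson correlation of 0.541 (Spearman 0.504, and Pearson 0.387 without the 2 libraries farthest from the median number), given as a description, since both come from the same library. The part of detection in the spread of mmu-mir-7b was not tested.

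The copies of miR-7a gave the same value in 8 of 12 libraries, where equal means a difference under 1e-09. Unrelated precursors often held this value too. Besides mmu-mir-7a-1, it was held by 13 precursors in WT + EtOH replicate 3 and 15 in TLR4-KO + EtOH replicate 2, the other copy included. In WT replicate 3 only the copies of miR-7a held it. In WT + EtOH replicate 2, TLR4-KO replicate 2 and TLR4-KO + EtOH replicate 1, mmu-mir-7a-2 was below mmu-mir-7a-1, by at most 3.29. In TLR4-KO replicate 1, however, mmu-mir-7a-2 was at 41.5 (rank 117 of the library) and mmu-mir-7a-1 at 20.9 (rank 184), a gap of 20.6 between precursors with an identical 5p product. A table published with the study orders the precursors of this library differently from the deposited column, and whether this column is the one the study analysed is not known. To see how common such a gap is, 22 pairs of precursors that are above 0 in all libraries and whose names differ only in the copy number were examined, that of miR-7a included. In each library 3 to 6 of these pairs were equal. Over the 264 values of these pairs in the 12 libraries, 13 gaps were larger. Of these, 12 belonged to mmu-mir-128-1 and mmu-mir-128-2, which stood 31.7 or more apart in every library, and the other was that of mmu-mir-194-1 and mmu-mir-194-2 in the same library, TLR4-KO replicate 1 (25.4). In that library the median gap of the 22 pairs was 3.33, within the 1.75 to 3.51 of the 12 libraries, but the 90th percentile was 19.6, the highest of the 12 (6.75 to 15.2 in the others). TLR4-KO replicate 1 also had the lowest mean Spearman correlation with the other 11 libraries (0.916, against 0.923 to 0.944 for the others), over the 324 precursors. The values of mmu-mir-7a-1 and mmu-mir-7a-2 correlated over the 12 libraries with a Pearson r of 0.425 (Spearman 0.678), and with 0.967 without TLR4-KO replicate 1. Reads of mmu-miR-7a-5p cannot be told apart by copy, and the separate values of the copies are uncertain for this reason.

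**Figure D3:**
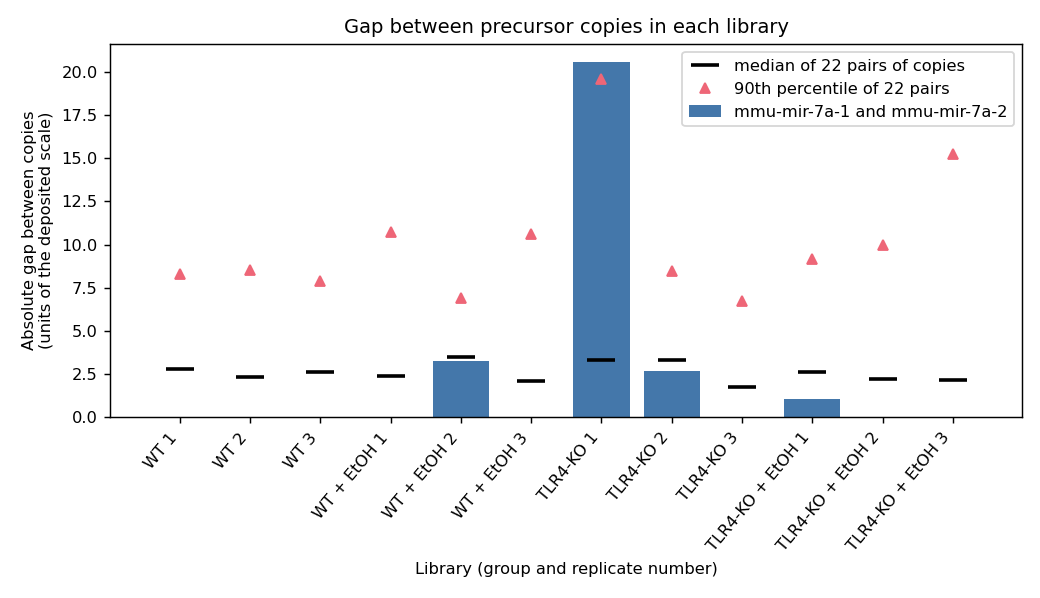
Absolute gap between the deposited values of mmu-mir-7a-1 and mmu-mir-7a-2 (bars, y axis in units of the deposited scale) in each library (x axis), with the median and the 90th percentile over 22 pairs of precursor copies, miR-7a included. The gap is 0 in 8 libraries, at most 3.29 in 3 and 20.6 in TLR4-KO replicate 1.

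To see whether chronic alcohol intake changed miR-7 in the WT cortex, WT + EtOH was compared with WT. The means of all 3 precursors were lower with alcohol, but none passed the test, and by limma 1.70% of the 589 precursors were called at an adjusted p under 0.05 (10 in either direction). The copies of miR-7a had equal values here except in WT + EtOH replicate 2, so that they do not count as separate evidence. mmu-mir-7a-1 differed by −3.55 (standard error 3.79, 95% interval −12.2 to 5.12), mmu-mir-7a-2 by −4.65 (5.38, −17.0 to 7.68) and mmu-mir-7b by −3.79 (9.40, −25.3 to 17.7), each with an adjusted p of 1 from limma. For either copy of 7a, 2 of the 3 WT + EtOH libraries were below every WT library and the other was above every one. With 1 library left out, the difference ran from −6.27 to −1.21 for mmu-mir-7a-1 and from −7.91 to −2.86 for mmu-mir-7a-2, the extremes being without replicates 1 and 3 of WT + EtOH. mmu-mir-7b became higher with alcohol without WT + EtOH replicate 2, in which it is at 0 (1.89). In bulk cortex, fewer cells that hold miR-7 and less miR-7 per cell cannot be told apart.

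To see whether the loss of TLR4 alone was accompanied by a change, TLR4-KO was compared with WT. Here 2.55% of all precursors were called, and none of the miR-7 precursors. The differences were −1.27 (standard error 3.79, 95% interval −9.94 to 7.41) for mmu-mir-7a-1, 4.70 (5.38, −7.63 to 17.0) for mmu-mir-7a-2 and 1.91 (9.40, −19.6 to 23.4) for mmu-mir-7b, with an adjusted p of 1 from limma. For mmu-mir-7a-2, 2 of the 3 TLR4-KO libraries were above every WT library and the other was below every one. The copies of miR-7a thus pointed in opposite directions. Without TLR4-KO replicate 1 all 3 differences changed their sign, to 0.564, −0.779 and −6.26, and without WT replicate 3 that of mmu-mir-7b became −0.0614.

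In the TLR4-KO cortex, alcohol was compared in TLR4-KO + EtOH and TLR4-KO, where 0.340% of the precursors were called and no miR-7 precursor. mmu-mir-7a-1 differed by 0.415 (standard error 3.79, 95% interval −8.26 to 9.09), mmu-mir-7a-2 by −5.90 (5.38, −18.2 to 6.43) and mmu-mir-7b by −4.30 (9.40, −25.8 to 17.2). The adjusted p from limma was 1 for each. The difference of mmu-mir-7a-2 shrank to −0.422 without TLR4-KO replicate 1, and that of mmu-mir-7b became 3.88 without the same library and 2.08 without replicate 2 of TLR4-KO + EtOH. That of mmu-mir-7a-1 turned negative when replicate 1 or 2 of TLR4-KO (−1.42, −0.280) was left out, and likewise for replicate 1 or 3 of TLR4-KO + EtOH (−2.35, −0.256).

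Between the alcohol-treated groups of both genotypes, TLR4-KO + EtOH and WT + EtOH, 0.509% of the precursors were called and again no miR-7 precursor. All 3 were higher on average in TLR4-KO + EtOH, by 2.70 (standard error 3.79, 95% interval −5.97 to 11.4) for mmu-mir-7a-1, 3.45 (5.38, −8.88 to 15.8) for mmu-mir-7a-2 and 1.40 (9.40, −20.1 to 22.9) for mmu-mir-7b, with an adjusted p of 1 from limma. The difference of mmu-mir-7b was negative when WT + EtOH replicate 2 (−4.27) was left out, and also for replicate 1 (−0.944) or 3 (−2.63) of TLR4-KO + EtOH, and that of mmu-mir-7a-1 was −0.0640 without TLR4-KO + EtOH replicate 1. That of mmu-mir-7a-2 stayed positive, at 1.03 without replicate 1 of TLR4-KO + EtOH and 6.71 without replicate 2. The copies of miR-7a had equal values here except in WT + EtOH replicate 2 and TLR4-KO + EtOH replicate 1, and again are not separate evidence. These 4 comparisons share groups with each other, and their values are not independent.

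The effect of alcohol in TLR4-KO, less that in WT, was 3.97 (standard error 5.35, 95% interval −8.30 to 16.2) for mmu-mir-7a-1, −1.25 (7.61, −18.7 to 16.2) for mmu-mir-7a-2 and −0.506 (13.3, −31.0 to 30.0) for mmu-mir-7b. None passed limma's test of this difference (adjusted p = 1), in which 1.19% of the precursors were called. For mmu-mir-7a-1 it ran from 1.20 without replicate 1 of TLR4-KO + EtOH to 7.41 without replicate 2. For mmu-mir-7a-2 it was positive when replicate 1 of WT + EtOH (2.01), replicate 1 of TLR4-KO (4.23) or replicate 2 of TLR4-KO + EtOH (2.01) was left out, and for mmu-mir-7b when any of these (5.18, 7.67 and 5.87) or replicate 3 of WT (1.47) was. A dependence of the alcohol effect on TLR4 was thus not detectable for miR-7 with 3 pools per group.

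Averaging over the other factor used all 12 libraries. The mean alcohol effect over both genotypes was −1.57 (standard error 2.68, 95% interval −7.70 to 4.56) for mmu-mir-7a-1, −5.28 (3.80, −14.0 to 3.44) for mmu-mir-7a-2 and −4.04 (6.65, −19.3 to 11.2) for mmu-mir-7b, with 0.340% of all precursors called. The mean TLR4-KO effect, with and without alcohol, was 0.719 (2.68, −5.41 to 6.85), 4.07 (3.80, −4.64 to 12.8) and 1.66 (6.65, −13.6 to 16.9) in the same order, with 1.36% of all precursors called. The adjusted p from limma was 1 for all 6 values. Without TLR4-KO replicate 1, the mean alcohol effect was −2.54 for mmu-mir-7a-2 and 0.0425 for mmu-mir-7b, and the mean TLR4-KO effect was 1.33 and −2.43. Without TLR4-KO + EtOH replicate 2 the mean alcohol effect of mmu-mir-7a-1 was 0.149. The mean TLR4-KO effect of mmu-mir-7a-1 was negative when replicate 3 of WT + EtOH (−0.451), replicate 3 of TLR4-KO (−0.544) or replicate 1 of TLR4-KO + EtOH (−0.665) was left out, and that of mmu-mir-7b also for replicate 2 of WT + EtOH (−1.18) or replicate 3 of TLR4-KO + EtOH (−0.358).

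The means were also compared by exact permutation, two-sided, in 18 tests. For 3 libraries against 3 the exact p ranged from 0.4 to 1, and 0.1 is the smallest it can be. For the mean alcohol effect, with labels permuted within each genotype, the exact permutation p was 0.565 for mmu-mir-7a-1, 0.21 for mmu-mir-7a-2 and 0.525 for mmu-mir-7b, and for the mean TLR4-KO effect 0.815, 0.315 and 0.785, where 0.005 is the smallest possible. After adjustment over the 18 tests, the exact permutation p lay between 0.953 and 1. In none of the 4 comparisons of 2 groups did the libraries of a miR-7 precursor fail to overlap, which 16.8% of the 589 precursors did between WT + EtOH and WT, 15.6% between TLR4-KO and WT, 6.11% between TLR4-KO + EtOH and TLR4-KO and 4.92% between TLR4-KO + EtOH and WT + EtOH. The 265 precursors at 0 in every library could neither separate nor be called. The 99, 92, 36 and 29 precursors that separated were thus among the 324 above 0.

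**Figure D4:**
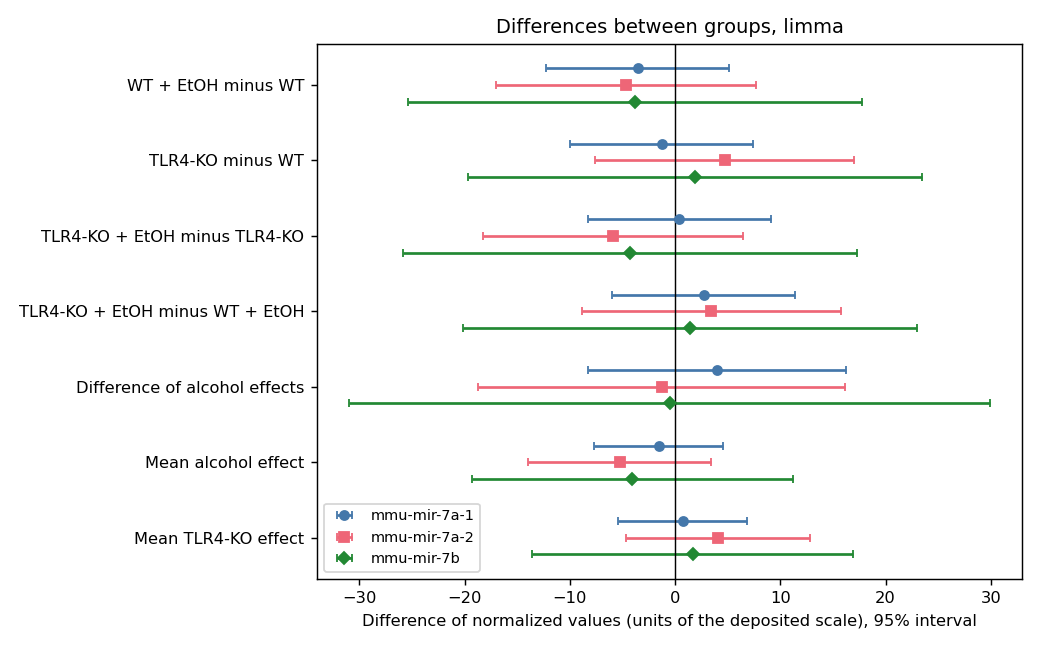
Difference of the normalized values (x axis, units of the deposited scale) for the 3 miR-7 precursors in the 7 comparisons (y axis), with points for limma's estimate and bars for its 95% interval. Every interval includes 0, and those of mmu-mir-7b are the widest in each comparison.

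The precursors of the miR-7 circuit and of neuroendocrine cells were at 0 in many libraries. mmu-mir-671, the miRNA that directs the cleavage of Cdr1as, was at 17.6, 0 and 20.1 in WT, 22.7, 0 and 0 in WT + EtOH, 0 in all 3 TLR4-KO libraries and 0, 0 and 17.5 in TLR4-KO + EtOH. It was thus above 0 in 4 of the 12 libraries. In these 4 mmu-mir-7b was also above 0, but it was so in 9 of the 12, and both 7a precursors in all 12. In TLR4-KO replicate 1, where mmu-mir-7b was highest, mmu-mir-671 was at 0. Its difference was −12.6 between TLR4-KO and WT (standard error 7.95, adjusted p = 0.729 from limma) and −5.00 between WT + EtOH and WT (7.95, adjusted p = 1).

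mmu-mir-375, a miRNA of pancreatic islets and of the pituitary that shares the neuroendocrine expression of miR-7, was at 14.7, 8.17 and 5.23 in WT, at 0 in all WT + EtOH and TLR4-KO libraries and at 0, 18.1 and 0 in TLR4-KO + EtOH. The difference of −9.38 is the same in both, since both have mmu-mir-375 at 0 (standard error 4.62, adjusted p = 0.518 for WT + EtOH and 0.495 for TLR4-KO, from limma).

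mmu-mir-200a, of a family known from epithelia, was at 17.6 to 25.7 in the WT libraries and at 0 in all of TLR4-KO + EtOH, and its highest library reached 10.95 in WT + EtOH and 17.8 in TLR4-KO. mmu-mir-200b, mmu-mir-200c and mmu-mir-141 are of the same family as mmu-mir-200a. With them, 6 of 7 precursors of this list were in the table, of which mmu-mir-200c was at 0 throughout. The list is thus mostly of this family, and its medians and sums do not stand for mmu-mir-671 and mmu-mir-375 alone. None of the 6 was called in any of the 7 comparisons. Between WT + EtOH and WT, mmu-mir-200a differed by −18.0 and mmu-mir-200b by −22.4 (adjusted p = 0.120 and 0.0616 from limma). The paper reports both as down-regulated by alcohol in WT, by sequencing with its own model and by RT-qPCR. The median difference of the 6 was −9.18 between WT + EtOH and WT and −11.0 between TLR4-KO and WT, where the median over the 324 precursors detected was 0 in both, while it was 0 in both comparisons with TLR4-KO + EtOH against TLR4-KO and against WT + EtOH. Their summed level was 61.5 to 83.7 in the WT libraries, up to 33.7 in WT + EtOH, up to 33.0 in TLR4-KO and up to 18.1 in TLR4-KO + EtOH, the lowest library of each of the latter groups being at 0. With all libraries, the means of mmu-mir-7a-2 and mmu-mir-7b were highest in TLR4-KO and that of mmu-mir-7a-1 in WT. Neighbouring means differed by less than the larger SD. Without TLR4-KO replicate 1, TLR4-KO minus WT was −0.779 for mmu-mir-7a-2, −6.26 for mmu-mir-7b and 0.564 for mmu-mir-7a-1. Whether miR-7 follows the order of groups of this list thus cannot be told from the means.

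The label of the tissue was set against other marker miRNAs. All 12 precursors of the neuron list, among them the copies of miR-124, were above 0 in at least 1 library, and their summed level was 622 to 666 over the 12 libraries, with none called in any comparison. Their median difference was 3.54 between WT + EtOH and WT and 1.86 between TLR4-KO and WT. The median over the 324 precursors detected was 0 in both. The members of the neuron list went both ways. They ran from −9.38 (mmu-mir-218-1) to 9.29 (mmu-mir-128-1) in the first comparison and from −6.39 (mmu-mir-218-2) to 8.24 (mmu-mir-128-1) in the second. The oligodendrocyte list (3 precursors) had its lowest summed level in TLR4-KO (29.2 to 36.5), below WT (42.8 to 45.6), TLR4-KO + EtOH (40.4 to 45.2) and WT + EtOH (41.0 to 67.9), with no call. Most of it was mmu-mir-338, with means of 33.7, 39.4, 42.2 and 43.0 in the same order. mmu-mir-219a-2 was at 0 throughout TLR4-KO and TLR4-KO + EtOH, with means of 4.56 in WT and 8.41 in WT + EtOH. mmu-mir-219a-1 was above 0 only in WT + EtOH (mean 1.41). The precursor mmu-mir-126a of the endothelium (51.1 to 63.0) and the choroid plexus and ciliated cell list (6 precursors, of which mmu-mir-449a and mmu-mir-449c were at 0 throughout, 142 to 177) also had no call. Of the microglia and leukocyte list (4 precursors, mmu-mir-223 at 0 throughout, 105 to 130), mmu-mir-150 was called higher in WT + EtOH and in TLR4-KO than in WT. In these comparisons, mmu-mir-142a differed by −2.81 and −11.8 and mmu-mir-155 by 0 and 7.32, neither of them called. Of the red blood cell list (3 precursors, 151 to 163 in WT and 127 to 150 over the other groups), mmu-mir-451a was called lower in the same comparisons and in the mean TLR4-KO effect. In the same order, mmu-mir-144 differed by 1.20, −4.13 and −4.73 and mmu-mir-486a by −0.383, 0.486 and 0.0114, neither of them called. The part of these cell types in the values of miR-7 was not tested.

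The precursors whose values followed those of miR-7 most closely over the 12 libraries were sought among 188 precursors above 0 in all libraries (190 for mmu-mir-7b), as a description, with the other copy of miR-7a left out for each copy. For mmu-mir-7a-1 they were mmu-mir-488 (Pearson r = 0.698, Spearman 0.650), mmu-mir-34c (0.619, 0.587) and mmu-mir-106b (0.612, 0.587). Without the 2 libraries in which mmu-mir-7a-1 was farthest from its median, r was 0.588, 0.694 and 0.569. For mmu-mir-7a-2 they were mmu-let-7i (r = 0.763, Spearman 0.551), mmu-mir-194-1 (0.671, 0.497) and mmu-mir-185 (0.665, 0.615), and r fell to 0.378, 0.333 and 0.409 without TLR4-KO replicate 1 and WT + EtOH replicate 3. The likeness of mmu-mir-7a-2 to these precursors rested on TLR4-KO replicate 1, without which r was 0.353, 0.317 and 0.353. For mmu-mir-7b they were mmu-mir-431 (r = 0.676, Spearman 0.620), mmu-mir-7a-2 (0.642, 0.394) and mmu-mir-425 (0.625, 0.437), and without TLR4-KO replicate 1 r was 0.520, 0.372 and 0.293. No precursor was among the 3 most alike of more than 1 miR-7 precursor. mmu-mir-7b and mmu-mir-7a-1 had an r of 0.117 (Spearman 0.0845).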

How the data were processed

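The 12 libraries were small RNA libraries of pooled cortical RNA. Per the labels and the paper's methods, the authors used FastQC 0.11.6, trimmed adapters with Cutadapt, mapped the reads with Bowtie 2.2.5 and TopHat and named GRCm38 as the build. The paper's methods name a normalization by trimmed mean of M values and edgeR on counts. The miRBase release and the step that gave the deposited values are not given in the sources used here. The deposited unit is a score, for which the authors' values were found to follow a scaled logarithm and to have the same highest values in all libraries. No expressed value is a whole number and no read counts stand beside the deposited values. For this reason no count model was run and counting error is not covered. The paper reports miRNA reads for each condition, which were not used here. The values were compared with limma 3.58.1 in R 4.3.3 (default eBayes, 1 mean per group, all 12 libraries, no covariate, total degrees of freedom 8.31) and a Benjamini-Hochberg adjustment over 589 precursors, with a threshold of 0.05. Exact permutation tests used scipy 1.17.1 in Python 3.11.15. Alternatives were quantile normalization, a filter on low values (above 0 in at least 3 libraries, 285 precursors), only the groups compared, a replicate block, the number of precursors above 0 as a covariate, 0 as missing, robust eBayes with a trend and each library left out. Named precursors are the 3 members, the 3 most alike to each by Pearson's r and, of each marker list, those first in it, and others that were called, lay in a wide gap or were at 0 were named after their values were seen. The members and lists were chosen with earlier results of these data known. Sequences and positions are from RefSeq (GRCm38.p6) and GENCODE M21.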

Additional observations from a re-analysis of the deposited data

How the results depend on the processing

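No miR-7 precursor passed the threshold in any of the 7 comparisons under any alternative run, the smallest adjusted p being 0.213 from limma (mmu-mir-7a-2, TLR4-KO minus WT, with the number of precursors above 0 as a covariate, where the difference was 12.2). The filter, the choice of groups, the block and robust eBayes leave the differences themselves as they are, and the quantile step acts on values already aligned. Of the 42 values with the covariate or with 0 as missing, 37 kept their direction. With 0 as missing, the differences of both 7a precursors could not change, since these were above 0 in every library. With this covariate, mmu-mir-7a-2 and mmu-mir-7b became higher with alcohol in WT (0.605 and 4.99), mmu-mir-7a-1 became lower with alcohol in TLR4-KO (−0.143) and mmu-mir-7b lower in TLR4-KO + EtOH than in WT + EtOH (−0.563), and with 0 as missing mmu-mir-7b was higher with alcohol in WT (1.89). The causes were not tested. The covariate also moved the difference of the alcohol effects to −9.95 for mmu-mir-7a-2 and −15.0 for mmu-mir-7b, and TLR4-KO minus WT to 14.5 for mmu-mir-7b. Where a library of the comparison was left out, 150 of 180 values kept their direction, and 9 of the 30 that did not were without TLR4-KO replicate 1. The ranges of those that turned were as follows. For mmu-mir-7a-1 they were −3.79 to 0.564 (TLR4-KO minus WT), −2.35 to 3.85 (TLR4-KO + EtOH minus TLR4-KO), −0.0640 to 6.14 (TLR4-KO + EtOH minus WT + EtOH), −2.95 to 0.149 (mean alcohol effect) and −0.665 to 2.44 (mean TLR4-KO effect). For mmu-mir-7a-2 they were −0.779 to 9.72 (TLR4-KO minus WT) and −6.27 to 4.23 (difference of the alcohol effects). For mmu-mir-7b they were −9.47 to 1.89 (WT + EtOH minus WT), −6.26 to 10.4 (TLR4-KO minus WT), −12.8 to 3.88 (TLR4-KO + EtOH minus TLR4-KO), −4.27 to 7.78 (TLR4-KO + EtOH minus WT + EtOH), −9.03 to 7.67 (difference of the alcohol effects), −8.31 to 0.0425 (mean alcohol effect) and −2.43 to 5.92 (mean TLR4-KO effect). Those that kept their direction ran from −6.27 to −1.21 (WT + EtOH minus WT) and 1.20 to 7.41 (difference of the alcohol effects) for mmu-mir-7a-1, and for mmu-mir-7a-2 from −7.91 to −2.86 (WT + EtOH minus WT), −10.9 to −0.422 (TLR4-KO + EtOH minus TLR4-KO), 1.03 to 6.71 (TLR4-KO + EtOH minus WT + EtOH), −7.79 to −2.54 (mean alcohol effect) and 1.33 to 6.58 (mean TLR4-KO effect).

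The numbers of all precursors called by limma moved more, in this order of comparisons: WT + EtOH minus WT (10), TLR4-KO minus WT (15), TLR4-KO + EtOH minus TLR4-KO (2), TLR4-KO + EtOH minus WT + EtOH (3), difference of the alcohol effects (7), mean alcohol effect (2) and mean TLR4-KO effect (8). With the covariate they were 59, 63, 4, 6, 58, 25 and 38. With the filter they were 21 in the first, 31 in the second, 13 in the fifth and 0 in the sixth (48 at an unadjusted p under 0.05). Robust eBayes with a trend gave 18, 31, 1 in the fourth, 10 in the sixth and 4 in the last. With 0 as missing they were 31 in the second, 0 in the third (31 unadjusted), 1 in the fourth, 0 in the sixth (33 unadjusted) and 5 in the last. Quantile normalization gave 0 in the third (36 unadjusted), 1 in the fourth and 5 in the last, and only the groups compared gave 0 in the third and the fourth (25 unadjusted in each). Without 1 library the calls numbered 4 to 18, 11 to 22, 0 to 4 (34 unadjusted at 0), 0 to 3 (24 and 32 unadjusted at 0), 2 to 15, 2 to 8 and 2 to 12. The labels do not say that a replicate number stands for a shared day or animal. Of 18 pairs of libraries with the same number, 4 had a correlation over 0.1 (median 0.0577, lowest −0.0776, highest 0.240). Of 36 pairs with different numbers, also from different groups, 4 had one over 0.1 (median −0.0367, lowest −0.268, highest 0.259). In 5 of 12 libraries the best correlation was with a library of their own number. The replicate block called 24 precursors between TLR4-KO and WT and 3 in the difference of the alcohol effects, and 13, 3, 2, 3 and 10 in the remaining comparisons in the order above. No miR-7 difference was called under it.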
